A study of Mus musculus with 6 samples.

Results

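Lipofibroblasts (LipoFBs) of PBS-treated mouse lung were chosen by their own counts, as barcodes with at least 2000 unique molecular identifiers (UMIs), no UMI of Ptprc, Pecam1 or Epcam, at least 2 UMIs of the transcription factor Tcf21, and a sum of at least 2 UMIs over Colq, Slc7a10, Igfbp3 and Fabp3 together. The rule found 3240 LipoFB barcodes among the 7199 barcodes of both PBS libraries and the 33286 barcodes of all 6 libraries. Of these, 442 came from the single-dose PBS library and 2798 from the repetitive PBS library. They were set against the other barcodes of the same library that passed the UMI minimum, had none of the 3 excluded genes and held at least 1 Pdgfra UMI, which numbered 352 and 2114.

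LipoFBs are interstitial fibroblasts (FBs) of the alveolar wall that lie close to alveolar type 2 epithelial cells and were named for their neutral lipid droplets. They are known as holders of retinoids and lipids, as a source of growth factors for the epithelium, and, in the mouse, as cells that depend on Tcf21. The droplet coat protein perilipin 2 (Plin2) and the fatty acid receptor Pparg are the genes most often linked to their lipid state. Adventitial (matrix) FBs, the other large group in this sort, surround vessels and airways and are known by Dcn, Col14a1, Ly6a and Pi16.

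Each lung library pooled GFP+ cells of 3 male Pdgfra-GFP mice of 10 to 14 weeks, in which enhanced GFP is made from the Pdgfra locus, so the sort kept cells in which that locus was active. The single-dose PBS mice received 50 ul of PBS once by oropharyngeal aspiration and were taken at day 14, and the repetitive PBS mice received 50 ul once a week for 3 weeks and were taken 2 weeks after the last dose. The matching bleomycin mice had 1 dose, for which the labels give 2 U/kg in one field and 4 U/kg in another, or weekly doses of 1, 1 and 0.5 U/kg. With 1 library per condition the spread between mice is unknown, no difference was tested and no p-value is given. The single-dose PBS library held 7201081 UMIs in 1060 barcodes, and the repetitive PBS library held 64697147 UMIs in 6139 barcodes. The 2 PBS libraries shared 0 barcode sequences, and the repetitive PBS and bleomycin libraries shared 28.

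Levels are UMIs summed over the barcodes of a group, scaled to a total of 1000000 UMIs per group (CPM). Brackets hold exact 95% intervals (Poisson for CPM, Clopper-Pearson for shares), which cover counting error only. A log2 ratio was taken after adding 1 CPM to each level. A gene was tested where the mean of the groups reached 10 CPM in both experiments, and it is called higher or lower where the log2 ratio was at least 1 or at most -1 in both. A gene low in either group could thus be tested only if it was high in the other, so the floor favoured large ratios among such genes. Since the rule read the same counts, all ratios against other barcodes are descriptions.

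LipoFB barcodes made up 55.7% [52.1 to 59.2] of the 794 single-dose PBS barcodes that met the rule or held Pdgfra, and 57.0% [55.6 to 58.4] of the 4912 such barcodes of the repetitive library. Pdgfra itself was not asked of them, and 413 of 442 (93.4%) and 2738 of 2798 (97.9%) held it. The GFP transcript, listed only in the table of the single-dose PBS library, was counted in 97.3% of LipoFB barcodes, in 93.2% of the other barcodes and in 12% of 25 barcodes with Ptprc and no Pdgfra (median 5058 UMIs). Depth was similar in the groups set side by side. The median was 7100.5 UMIs in LipoFB and 7081.5 in other barcodes of the single-dose library, and 10848 and 10190.5 in the repetitive library. The share that met the rule depended on depth, for when every barcode was first thinned to 2000 UMIs it was 31.6% [27.8 to 35.5] of 580 and 19.5% [18.2 to 20.8] of 3607.

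The genes that chose the barcodes were not all seen in each of them. Igfbp3, which encodes a secreted binding protein of insulin-like growth factors, was counted in 86.4% and 89.1% of LipoFB barcodes of the single-dose and repetitive libraries. Slc7a10, a carrier of small neutral amino acids, was counted in 64.7% and 57.8%, and Colq, the collagen tail that anchors acetylcholinesterase, in 53.8% and 59.2%. Fabp3, a fatty acid binding protein, was counted in 45.9% and 42.5%. In barcodes with Ptprc and no Pdgfra (median 5058 and 4071 UMIs), Igfbp3 was counted in 12% and 10.7%, Slc7a10 in 8% and 2.54%, Colq in 8% and 14.7%, and Fabp3 in 12% and 2.03%. All 4 markers were present in 72 and 507 barcodes, 3 in 158 and 907, 2 in 135 and 824, and 1 in 77 and 560. The sum of the 4 markers had a median of 8 UMIs with quartiles of 4 and 14 in the single-dose library, and a median of 10 UMIs with quartiles of 5 and 17 in the repetitive library. Ache, the enzyme that Colq anchors, had 0 UMIs in the LipoFB barcodes of both libraries, which allows at most 0.95 and 0.0929 CPM at 3 UMIs. It also had 0 UMIs in the other Pdgfra-positive barcodes and in those with Ptprc and no Pdgfra. Whether these libraries could count Ache at all is thus not known.

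Barcodes at the edge of the rule had a lower level of Ces1d than those further inside. The 7 single-dose and 54 repetitive barcodes with exactly 2 Tcf21 and 2 marker UMIs held the carboxylesterase Ces1d at 313 and 461 CPM, against 857 and 822 CPM in the barcodes further inside. Just outside, the 61 and 379 barcodes that missed the rule by 1 Tcf21 UMI held Ces1d at 400 and 574 CPM, and the 51 and 280 that missed it by 1 marker UMI held it at 306 and 331 CPM. Dcn, an adventitial gene, stood at 1096 and 2382 CPM at the edge and at 392 and 613 CPM further inside. Of the Pdgfra-positive barcodes with few adventitial UMIs, the 152 and 676 that missed the rule by more held Ces1d at 444 and 529 CPM and Dcn at 186 and 138 CPM. That set leaves out barcodes rich in adventitial UMIs, which the sets at and just outside the edge do not, so its levels cannot be ranked with theirs. These edge values are given with no test, since the rule set them apart.

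Most genes of alveolar wall FBs had a higher level in LipoFB than in other barcodes and few of them reached a level 2 times as high, while every tested adventitial gene had a lower level. Of 6815 genes tested, 30 (0.44%) were higher and 128 (1.88%) were lower in LipoFB barcodes than in the other barcodes of both libraries. Median log2 ratios over all tested genes were 0.04 in both. Of the 20 alveolar FB genes 19 were tested, 18 had a ratio above 0 in both libraries, and the list medians were 0.74 and 0.73. The study had already named Plin2, Col13a1, Npnt, Hsd11b1, Ces1d, Selenbp1 and Gstm2 for LipoFBs from cells of this series. It also named a gene written as Wnt2a, taken here as Wnt2, and it named Mfap4 and Car2 for LipoFBs after bleomycin. Higher levels of the list were thus partly fixed in advance and are given as a description. Fgfr4, Wnt2, Ces1d and Car2 were higher and Enpp2 was lower. Many calls ended when the rule was applied to thinned counts, which left 183 and 702 barcodes that met it. LipoFB barcodes that failed the thinned rule and kept a Pdgfra UMI then counted among the other barcodes. The effects of depth and of this change in the comparison group cannot be told apart. With every barcode thinned to 2000 UMIs before the rule was applied, Ccdc42, Cpm and Hopx were the 3 of the 30 higher genes that kept the call, and all the others named as higher here, including Ces1d, Wnt2, Fgfr4, Mgll, Bmper, Fat3 and Tnc, lost it. Of the 128 lower genes 74 kept the call, and Enpp2, Rbp4, Adh7, Il6, Wnt5a, Pdgfrb, Ramp2, Gata6 and Acta2 were among those that lost it. With 5 CPM added in place of 1, the higher genes Wnt2 and Mgll and the lower genes Scd1, Csf1, Osr1, Adh7, Acta2, Ramp2 and Wnt5a, all named here, lost the call.

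**Figure D1:**
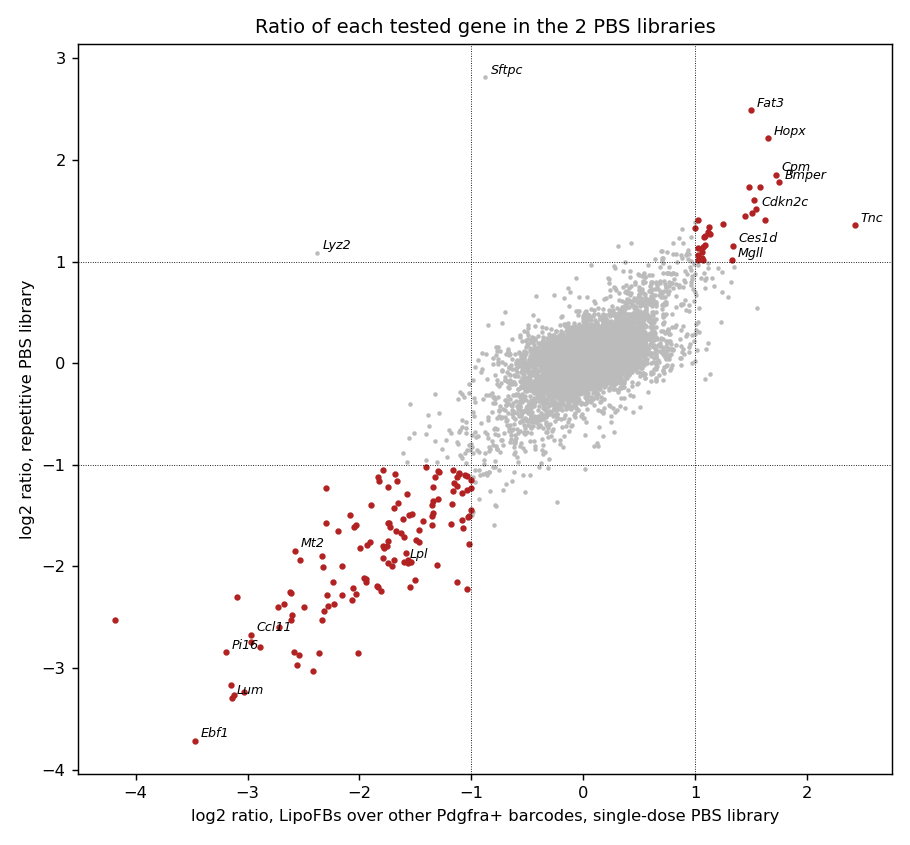
Log2 ratio of LipoFB over other Pdgfra-positive barcodes for the 6815 tested genes, single-dose library on the horizontal axis and repetitive library on the vertical axis, with the 30 higher and 128 lower genes in red. Ebf1, Lum and Pi16 lie at the lower left, and Bmper, Hopx and Fat3 at the upper right.

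Ces1d, an esterase of lipids and drugs, had 847 CPM [815 to 880] in LipoFB barcodes and 334 CPM in the other barcodes of the single-dose library. In the repetitive library these levels were 815 CPM [806 to 825] and 365 CPM. The log2 ratios were 1.34 and 1.16. Hsd11b1, which turns inactive glucocorticoid into its active form, stood at 2009 against 1034 CPM and at 1729 against 914 CPM, with ratios of 0.96 and 0.92, and so came close to the limit without reaching it. Car2, a carbonic anhydrase, stood at 233 against 111 CPM and at 159 against 77.0 CPM. The methyltransferase Inmt (ratios 0.46 and 0.33), nephronectin (Npnt, 0.52 and 0.71), the selenium binding protein Selenbp1 (0.97 and 0.83), the membrane collagen Col13a1 (0.74 and 0.60) and the microfibril gene Mfap4 (0.87 and 0.59) were above 0 and below the limit.

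Most of the tested lipid genes passed the limit in neither direction. Of 51 genes of lipid droplets and fatty acids 30 were tested, 1 was higher, 2 were lower and 27 were neither, beside 0.44% higher and 1.88% lower of all genes, and the list medians were 0.18 and 0.12 beside 0.04 over all genes. Mgll, the lipase of monoglycerides, was the gene that was higher, with 54.5 CPM [46.6 to 63.2] against 21.0 CPM and 44.4 CPM [42.1 to 46.8] against 21.5 CPM. The lower genes were Lpl and Scd1. Lpl, the lipase that frees fatty acids from lipoproteins, had 40.8 CPM [34.1 to 48.5] against 126 CPM and 42.6 CPM [40.4 to 44.9] against 168 CPM, with ratios of -1.60 and -1.95. Scd1, which desaturates fatty acids, had 11.1 against 37.2 CPM and 15.7 against 36.3 CPM. Plin2 stood at 162 CPM [148 to 177] against 106 CPM and at 314 CPM [308 to 320] against 189 CPM, which gave ratios of 0.61 and 0.73.

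Few LipoFB barcodes held a Pparg UMI. It was counted in 7.24% [5.0 to 10.1] of LipoFB and 1.70% of other barcodes of the single-dose library, and in 22.4% [20.9 to 24.0] and 6.29% in the repetitive library. The levels were 10.4 CPM [7.19 to 14.7] against 2.43 CPM and 30.3 CPM [28.4 to 32.2] against 8.37 CPM, and since the mean of the single-dose pair is below the floor, Pparg was not tested. With no floor it was among the higher genes. In barcodes with Ptprc and no Pdgfra, whose macrophages are known to express the gene, Pparg was counted in 4.00% (1 of 25) and 13.2%. These barcodes were shallower, with medians of 5058 and 4071 UMIs, so the shares cannot be ranked. After thinning to 2000 UMIs, Pparg was counted in 1.81% and 5.40% [4.59 to 6.30] of LipoFB barcodes. The thinned shares with Ptprc and no Pdgfra were 4.00% and 7.11% [3.94 to 11.6]. Without thinning, Plin2 was counted in 61.1% and 79.2% of LipoFB barcodes, in 42.0% and 58.6% of other barcodes and in 40.0% and 30.5% of barcodes with Ptprc and no Pdgfra.

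Retinoid genes gave no called increase among the 13 tested of 22, which is near the 0.44% of all genes. Of them 2 were lower, beside 1.88% of all genes, and the list medians were -0.24 and -0.05. Lrat, which stores retinol as its ester, stood at 211 against 250 CPM and at 219 against 221 CPM. The lower genes were Rbp4, the retinol carrier of plasma, at 78.5 against 179 CPM and 60.1 against 182 CPM, and the alcohol dehydrogenase Adh7, at 17.1 against 46.9 CPM and 18.6 against 38.7 CPM. Among 25 tested xenobiotic and antioxidant genes, with medians of 0.32 and 0.18, Ces1d was higher and the metallothioneins Mt1 and Mt2 were lower. These calls stand beside 0.44% of all genes higher and 1.88% lower. Mt2, which binds zinc and copper, had 115 CPM [103 to 127] against 691 CPM and 95 CPM [91.7 to 98.5] against 344 CPM.

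**Figure D2:**
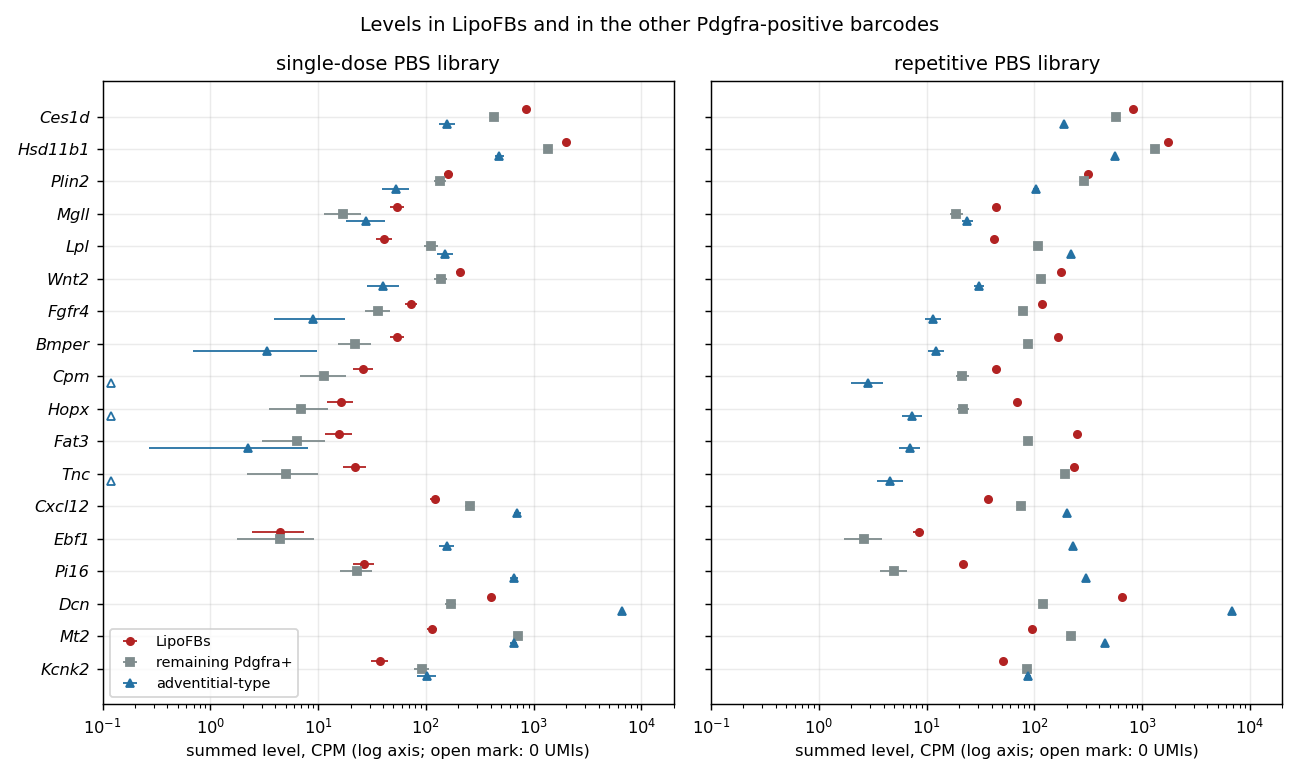
Summed level in CPM (log axis, with exact 95% intervals) of 18 genes in LipoFB, remaining Pdgfra-positive and adventitial-type barcodes of each PBS library, with open marks where no UMI was counted. Ces1d, Wnt2, Fgfr4 and Bmper fall from LipoFB to remaining to adventitial-type barcodes, whereas Lpl and Mt2 are lowest in LipoFB barcodes of both libraries.

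Among 29 tested niche ligands, which signal to epithelium, endothelium and immune cells, Wnt2 was higher and 7 were lower, beside 0.44% and 1.88% of all genes. Against the Pdgfra-positive barcodes left when those rich in Dcn, Col14a1 and Ly6a were taken out, 0 of 27 were higher and 2, Cxcl12 and Gdf10, were lower, beside 0.134% and 0.179% of all genes in that comparison. Wnt2 had 206 CPM [191 to 223] against 103 CPM and 176 CPM [171 to 180] against 69.2 CPM, with ratios of 1.00 and 1.33. The lower ligands were Ccl11, Il33, Cxcl12, Gdf10, Il6, Csf1 and Wnt5a. Cxcl12, a chemokine that attracts lymphocytes and progenitor cells, had 121 against 418 CPM and 37.0 against 143 CPM. Of the growth factors most often named as signals to the epithelium, Fgf7 had ratios of 0.05 and 0.00 and Fgf10 had ratios of -0.37 and -0.39. Of 36 receptors tested against all other Pdgfra-positive barcodes, Fgfr4 was higher and Pdgfrb and Ramp2 were lower, beside 0.44% and 1.88% of all genes. Fgfr4, a receptor of fibroblast growth factors, had 73.5 CPM [64.3 to 83.5] against 26.3 CPM and 117 CPM [113 to 121] against 42.2 CPM. The ratios of Pdgfra were 0.21 and 0.35.

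None of 33 tested mesenchymal transcription factors was higher, which is near the 0.44% of all genes. The largest mean ratio belonged to Foxf2, a forkhead factor of lung mesenchyme, at 98.5 against 56.6 CPM and 57.9 against 33.2 CPM. Ebf1, Gata6, Id2 and Osr1 were lower, beside 1.88% of all genes. Ebf1, a factor best known from B cells and fat, had the lowest mean ratio of the list, with 4.43 CPM [2.42 to 7.44] against 59.0 CPM and 8.42 CPM [7.45 to 9.48] against 123 CPM. It was low in the remaining Pdgfra-positive barcodes too, at 4.42 and 2.63 CPM, and stood at 156 and 226 CPM in the adventitial-type barcodes.

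Here and in the comparisons that follow, the largest increases and decreases were ranked by the ratio nearer to 0 of the 2 experiments. By this order the 10 genes with the largest increase were Bmper, Cpm, Hopx, Ccdc42, Cass4, Cdkn2c, Fat3, Chst2, Shisa2 and Fgfr4. Bmper, a secreted protein that binds bone morphogenetic proteins, had 54.1 CPM [46.3 to 62.9] against 15.4 CPM and 165 CPM [161 to 169] against 47.3 CPM. Cpm, a carboxypeptidase held in the membrane, had 26.3 against 7.28 CPM and 44.1 against 11.5 CPM. The levels of Bmper and Cpm did not overlap in their counting intervals, but both were picked for large ratios in the same counts, so this is a description only. Hopx, a homeodomain cofactor also used as a marker of alveolar type 1 cells, had 16.1 CPM [12 to 21.2] against 4.45 CPM and 68.7 CPM [65.9 to 71.6] against 14.0 CPM. The Hopx UMIs of the repetitive library were spread over 1189 LipoFB barcodes, and no barcode held more than 10. Hopx was counted in 10.6% and 42.5% of LipoFB barcodes of the single-dose and repetitive libraries, in 2.84% and 10.6% of other barcodes, and in 8% and 16.2% of barcodes with Ptprc and no Pdgfra, whose median depth was 5058 and 4071 UMIs. In the single-dose library the intervals of the LipoFB share [7.92 to 13.9] and of the share with Ptprc and no Pdgfra [0.984 to 26.0] overlapped. The atypical cadherin Fat3 had 15.5 against 4.85 CPM and 251 against 43.9 CPM, and the cell cycle inhibitor Cdkn2c had 337 against 115 CPM and 220 against 76.2 CPM. The matrix glycoprotein Tnc, which had the highest mean ratio of the fibrillar and elastic list, had 21.8 against 3.23 CPM and 233 against 90.5 CPM. In the single-dose library Cpm, Hopx, Fat3 and Tnc were below 10 CPM in other barcodes and passed the floor through their LipoFB level.

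The median ratios of the adventitial, the fibrillar and elastic, and the basement membrane lists were below 0 against all other Pdgfra-positive barcodes. The counts given here stand beside 0.44% of all genes higher and 1.88% lower. All 23 tested adventitial genes had ratios below 0 in both libraries, 13 were lower, and the list medians were -1.57 and -1.99. Dcn, a small proteoglycan that binds collagen, had 405 against 2479 CPM and 644 against 3728 CPM, and Pi16 had 26.6 against 251 CPM and 22 against 164 CPM. Of 30 fibrillar and elastic genes tested, Tnc was higher, Timp1 and Mmp3 were lower, and the medians were -0.42 and -0.48. Col1a1, a chain of type I collagen, had ratios of -0.65 and -0.66, and elastin (Eln) had -0.79 and -0.63. None of 14 basement membrane genes passed the limit in either direction, a count near those shares (medians -0.26 and -0.34). Of 8 contractile genes tested, Acta2 and Myl9 were lower, and Tagln had ratios of 0.88 and 1.32.

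The counts in the next lists stand beside 0.44% of all genes higher and 1.88% lower. Of 9 genes of insulin-like growth factor signalling tested, Igfbp4 and Igfbp5 were lower. Fkbp5, a target of glucocorticoid, was lower among 10 glucocorticoid and cyclic GMP genes. None of 6 acetylcholine and neural genes was higher or lower, and 5 of them had ratios above 0 in both libraries (medians 0.31 and 0.43). The axon guidance receptor Robo2 had the highest mean ratio of these, with 0.53 and 0.73, and the potassium channel Kcnk2 the lowest, with -1.33 and -0.77. Of the 26 immediate early and stress genes, which are known to respond to tissue digestion, Mt1, Mt2, Klf4 and Nr4a2 were lower and 0 were higher (medians -0.51 and -0.36).

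The other Pdgfra-positive barcodes were split by Dcn, Col14a1 and Ly6a, and 118 and 1014 barcodes with at least 10 UMIs in these genes were set apart as adventitial-type. Their median depth was 7614.5 and 11479.5 UMIs. The barcodes that remained were shallower than LipoFB barcodes, with medians of 6772 and 9314.5 against 7100.5 and 10848 UMIs. Against the 234 and 1100 that remained, 9 of 6712 genes (0.134%) were higher and 12 (0.179%) were lower, and the alveolar and adventitial medians lay nearer to 0. Ces1d stood at 432 and 572 CPM in these remaining barcodes, and its ratios were 0.97 and 0.51. The alveolar list had medians of 0.39 and 0.25 with no called gene, and the adventitial list had medians of -0.17 and 0.00. Mgll, Fat3, Chst2, Hopx, Ccdc42, Tppp3 and Cpm were higher. Mgll was at 17.1 and 18.9 CPM in the remaining barcodes, and Hopx was at 6.95 and 21.8 CPM. Ly6a and Dcn were higher as well, which the split itself fixed by taking barcodes rich in them out of the remaining group. LipoFB barcodes equally rich in these genes were kept, so the adventitial medians of this comparison depend on the split too.

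The 10 lowest of the 12 lower genes were Lpl, Mt2, Ctsc, Pdgfrl, Nr4a2, Gdf10, Mt1, C4b, Timp1 and Cxcl1. Lpl stood at 111 and 109 CPM and Mt2 at 714 and 220 CPM in the remaining barcodes. The protease Ctsc had 9.18 CPM in LipoFB and 34.1 CPM in remaining barcodes of the single-dose library, and 13.9 and 32.8 CPM in the repetitive library. The chemokine Cxcl1 had 18 against 49.9 CPM and 96.3 against 196 CPM, and the complement gene C4b had 129 against 323 CPM and 183 against 377 CPM. The immediate early list had medians of -0.37 and -0.15 in the same comparison, with Mt1, Mt2 and Nr4a2 as its lower genes, and its part in the others was not tested.

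Against the adventitial-type barcodes, 170 of 6845 genes (2.48%) were higher and 259 (3.78%) were lower. Of 19 alveolar genes 13 were higher and 1 was lower, with medians of 1.67 and 1.41. Wnt2 stood at 40.4 and 30.5 CPM and Bmper at 3.37 and 12.2 CPM in adventitial-type barcodes. Plin2 had the highest mean ratio of the lipid genes in this comparison, at 52.8 and 103 CPM in adventitial-type barcodes, with ratios of 1.60 and 1.59. Against the remaining Pdgfra-positive barcodes Plin2 was not among the higher genes. It was counted in 49.1% and 68.4% of those barcodes, against 61.1% and 79.2% of LipoFB barcodes. After thinning, the remaining barcodes had shares of 17.9% [13.3 to 23.5] and 33.5% [30.7 to 36.3]. The thinned LipoFB shares were 24.4% [20.5 to 28.7] and 36.0% [34.2 to 37.8], and the intervals overlapped in both libraries.

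The LipoFB barcodes were not uniform. In 31 (7.01%) and 278 (9.94%) of them, at least 10 UMIs of Dcn, Col14a1 and Ly6a were also counted. These barcodes held Ces1d at 220 and 307 CPM, against 913 and 896 CPM in the rest of the LipoFB barcodes, and Bmper at 3.33 and 31.6 CPM against 59.5 and 186 CPM. Their median depth was 9207 and 14481.5 UMIs, against 6929 and 10625.5. No doublet caller was run, and whether these were droplets with more than 1 cell was not tested. Without them, 46 genes were higher than in the other barcodes, and these held all 30 genes named as higher before. They were taken out of the LipoFB side only, and the other barcodes kept those rich in adventitial UMIs. The larger count was thus partly fixed by this step and is a description.

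Immediate early and stress genes varied more widely among LipoFB barcodes than the alveolar genes did. Their sum ran from 3657 to 24455 CPM between the quartiles of the single-dose library and from 2472 to 35072 CPM in the repetitive library, while the sum of the alveolar genes ran from 18289 to 30616 CPM and from 16382 to 22732 CPM. Over LipoFB barcodes the sums of these lists had Spearman correlations of -0.47 (n = 442) and -0.42 (n = 2798). The barcodes share a library, and the sums are parts of the same UMI total.

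**Figure D3:**
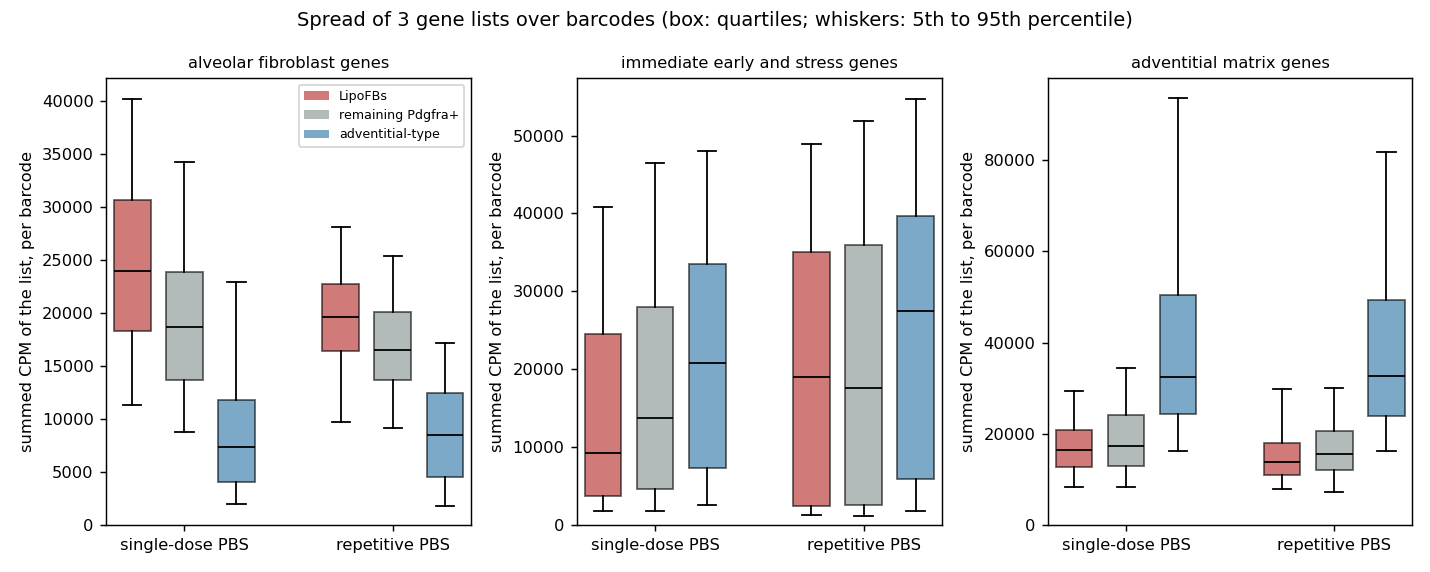
Summed CPM per barcode of the alveolar, immediate early and adventitial lists in each group of both PBS libraries, with boxes at the quartiles and whiskers at the 5th and 95th percentiles. The immediate early boxes are wider than the alveolar boxes, and the alveolar boxes of LipoFB barcodes sit above those of the adventitial-type barcodes.

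Markers of other cell types were low in LipoFB barcodes of both libraries, with exceptions in single genes. The rule asked for no UMI of Ptprc, Pecam1 or Epcam, so low immune, endothelial and epithelial levels were partly fixed by it. The sum of 10 endothelial markers was 12.7 and 8.11 CPM in LipoFB and 38.0 and 21.0 CPM in other barcodes. The sum of 17 immune markers was 189 and 30.4 CPM in LipoFB and 724 and 26.5 CPM in other barcodes, against 21894 and 20345 CPM in barcodes with Ptprc and no Pdgfra. The sum of 10 mural markers was 23.4 and 19.4 CPM, against 61.0 and 44.1 CPM. Cycling markers summed to 12 and 8.73 CPM. Of 11 epithelial markers 3 were tested, with median log2 ratios of -0.01 and 2.21 over other barcodes, and Hopx was higher. The epithelial gene Scgb1a1 was counted in 436 of 442 single-dose LipoFB barcodes, at 691 CPM, and stood at 697 CPM in other barcodes and 826 CPM in barcodes with Ptprc and no Pdgfra. Of 7 mesothelial markers 1 was tested, and this gene, Upk1b, was higher, while Msln had 0 UMIs and 1 UMI in LipoFB barcodes.

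The same rule found fewer barcodes after bleomycin. It was met by 103 of 669 barcodes (15.4% [12.7 to 18.4]) after a single dose and by 559 of 4124 (13.6% [12.5 to 14.6]) after repetitive doses. After thinning to 2000 UMIs it was met by 5 of 352 (1.42% [0.463 to 3.28]) and 27 of 2518 (1.07% [0.708 to 1.56]). Fewer such cells and less marker RNA per cell cannot be told apart here. Within the barcodes that met the rule, the median sum of the 4 markers was 3 and 4 UMIs, and all 4 were seen in 1 and 12 barcodes. Igfbp3 was at 66.0 and 191 CPM, against 940 and 740 CPM after PBS, and Tcf21 was at 551 and 395 CPM, against 957 and 663 CPM. The median depth was 14136 and 14916 UMIs, above that of PBS. The rule asks for UMIs of these same genes, and a fixed minimum lets in lower CPM in deeper barcodes. The levels of Igfbp3 and Tcf21 were thus partly set by the rule.

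**Figure D4:**
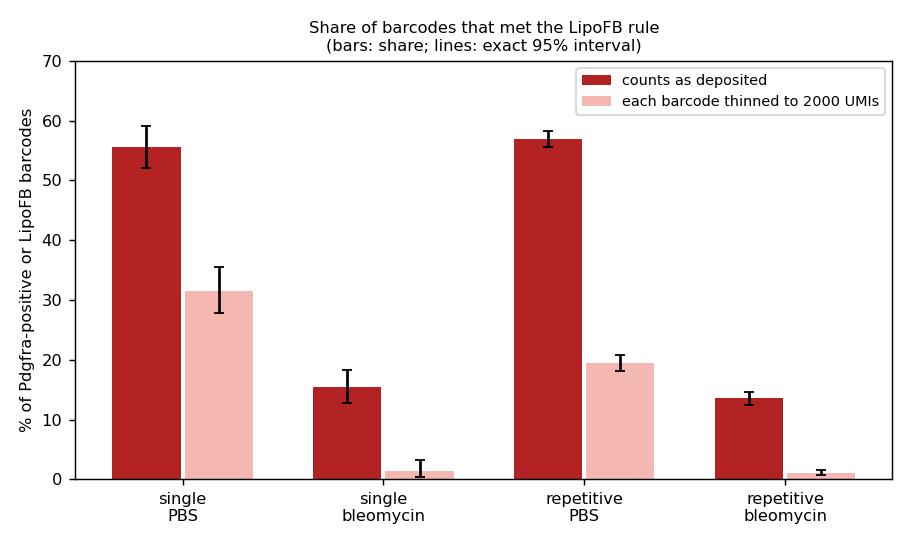
Share of barcodes that met the rule in the 4 lung libraries, in percent with exact 95% intervals, as deposited and after thinning to 2000 UMIs. Both PBS libraries sit above both bleomycin libraries in either form, at 55.7% and 57.0% against 15.4% and 13.6% as deposited.

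Barcodes that met the rule after bleomycin had Ces1d and Npnt near their PBS level and more RNA of fibrillar and elastic genes. The rule chose these barcodes by LipoFB markers, so their alveolar levels are descriptions. Of 6961 genes tested, 171 (2.46%) were higher and 58 (0.833%) were lower than in PBS LipoFB barcodes of both experiments. Ces1d stood at 957 and 880 CPM, with ratios of 0.18 and 0.11, and Npnt had ratios of -0.10 and -0.12. Of 19 alveolar genes tested, 11 had ratios below 0 in both experiments and 5 had ratios above 0 in both. The list medians were -0.30 and -0.36, with Mfap4 higher and Inmt and Selenbp1 lower. Selenbp1 was at 291 CPM against 1033 CPM and at 218 CPM against 586 CPM. Wnt2 had ratios of -0.30 and -0.54.

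Of 31 fibrillar and elastic genes 17 were higher and 0 were lower, beside 2.46% and 0.833% of all genes. The list medians were 1.37 and 1.31 beside 0.06 and 0.05 over all genes. Eln had 6637 CPM [6507 to 6770] against 591 CPM and 3303 CPM [3266 to 3341] against 545 CPM. Col1a1 had 1670 against 665 CPM and 1913 against 549 CPM, and Ltbp2, which binds fibrillin microfibrils, had 416 against 8.55 CPM and 487 against 7.71 CPM. Spp1 (osteopontin) had 378 CPM [348 to 411] against 0.95 CPM and 126 CPM [119 to 134] against 1.95 CPM. The single-dose PBS value of Spp1 rests on 3 UMIs. In the other Pdgfra-positive barcodes after bleomycin Spp1 was far above these levels, at 4489 and 1441 CPM, and it was at 817 and 5344 CPM in barcodes with Ptprc and no Pdgfra. Of the other lists, 4 of 14 basement membrane genes, 3 of 8 contractile genes and 5 of 20 adventitial genes tested were higher, beside 2.46% of all genes, and Acta2 had 238 against 15.2 CPM and 76.2 against 8.82 CPM. The share of these barcodes with at least 10 UMIs of Dcn, Col14a1 and Ly6a was 9.71% and 31.7%, against 7.01% and 9.94% after PBS.

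The 10 genes with the largest increase were Saa3, Ltbp2, Spp1, Lcn2, Fst, Hp, Nnat, Ecscr, Brinp1 and Pcdh7. Saa3, a serum amyloid A gene, had 286 CPM [260 to 315] against 1.27 CPM and 159 CPM [151 to 167] against 0.310 CPM, and Hp, which binds free hemoglobin, had 1315 against 87.7 CPM and 736 against 59.7 CPM. Saa3, Spp1 and Ltbp2 were below 10 CPM after PBS and passed the floor through their level after bleomycin. Of 31 lipid genes tested, Lpl was the 1 that was higher, a count near the 2.46% of all genes. Lpl was low in PBS LipoFB barcodes and had 339 CPM [310 to 370] against 40.8 CPM and 414 CPM [401 to 427] against 42.6 CPM. Plin2 stood at 187 against 162 CPM and at 152 against 314 CPM. The hedgehog inhibitor Hhip had 94.3 against 16.1 CPM and 183 against 18.9 CPM, and the transcription factor Runx1 had 53.9 against 5.07 CPM and 137 against 18.3 CPM. Insulin-like growth factor 1 (Igf1) had 472 against 91.8 CPM and 409 against 113 CPM.

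Among the 10 genes with the largest decrease were Atf3, Ppl, Faim2, Lepr, Rasgef1b, Rgcc, Cox8b, Gstm1 and Gria1. Gstm1, a glutathione transferase, had 386 CPM [355 to 419] against 1954 CPM and 257 CPM [247 to 268] against 847 CPM, and 4 of 25 xenobiotic and antioxidant genes were lower, beside 0.833% of all genes. The stress factor Atf3 had 29 against 233 CPM and 212 against 933 CPM. Atf3 belongs to the immediate early list, of which 5 of 26 genes were lower beside the same 0.833% (medians -1.41 and -0.80), and the part of this list in the other decreases was not tested. Sums of immune markers were 247 and 94.1 CPM after bleomycin, against 189 and 30.4 CPM, and sums of cycling markers were 158 and 41.4 CPM, against 12 and 8.73 CPM.

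**Figure D5:**
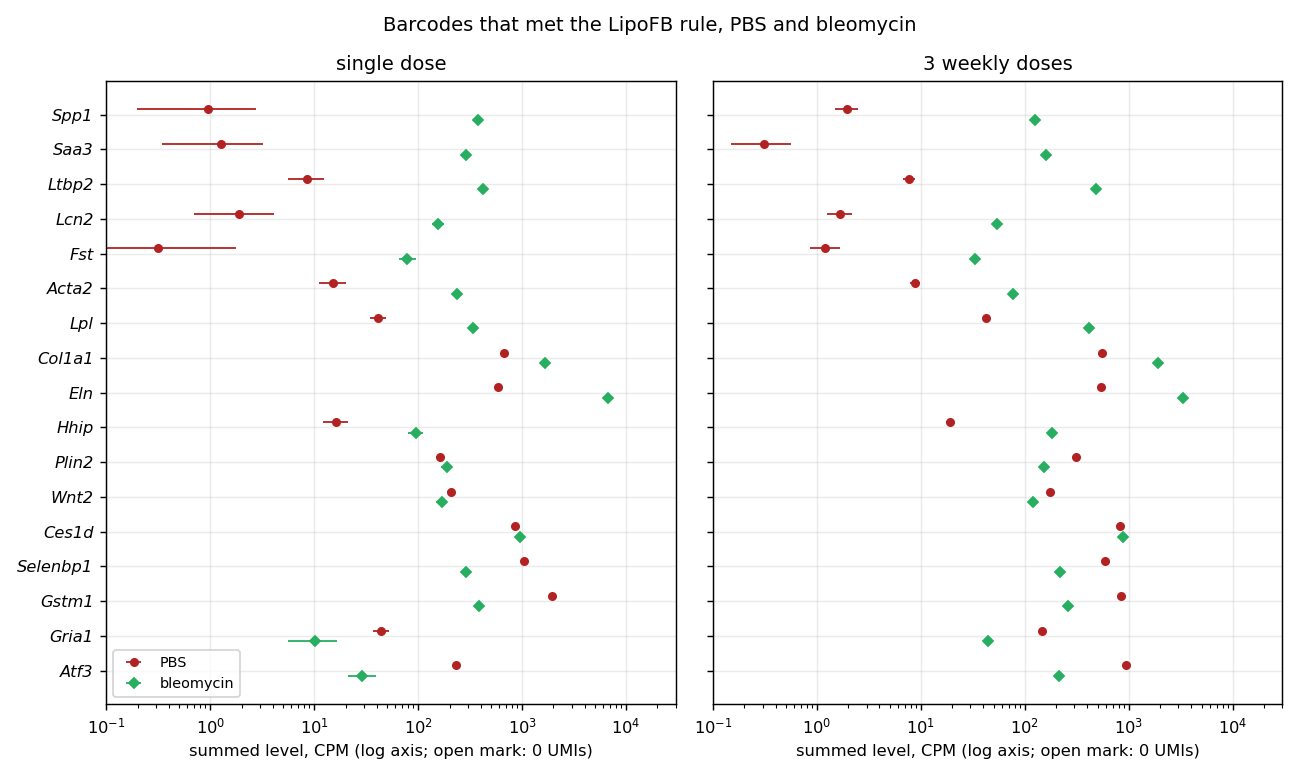
Summed level in CPM (log axis, with exact 95% intervals) of 17 genes in barcodes that met the rule after PBS and after bleomycin, for both experiments. Spp1, Saa3, Ltbp2 and Lpl are higher and Gstm1, Gria1 and Atf3 are lower after bleomycin in both, and Ces1d lies close to its PBS level.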

How the data were processed

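Raw UMI counts, deposited by the authors as 1 table of genes by barcodes for each library, were made with Cell Ranger 3.0.1 on mm10 (Seurat 3 is also named in the submitters' processing notes) and were not normalized. The single-dose libraries list 30830 and 30828 genes and the repetitive libraries list 32285 each, and 20492 names found in all 4 lung tables were compared. Counts were read and summed with Python 3.11.15, numpy 2.4.6, pandas 2.3.3 and scipy 1.17.1, and thinning used a fixed seed. LipoFB barcodes were chosen by the stated rule, and no cells were clustered. The 25 gene lists and the members were chosen with earlier results of these data known. Named genes were the 10 highest and 10 lowest per comparison by the ratio nearer to 0, the highest and lowest of each list by mean ratio, and a fixed set. Other genes named as called, and Scd1, Car2 and Cxcl12 among those given with values, were picked after their values were seen. Results for a few genes are not reported here. No barcode was removed as a doublet or for mitochondrial counts. Alternatives changed the rule, floor, pseudocount, weighting and comparison group. The ratio and interval steps were tested on simulated counts.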

Additional observations from a re-analysis of the deposited data

Results flagged for a closer look

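Lyz2 and Sftpc went in opposite directions against the other Pdgfra-positive barcodes in the PBS libraries, and the difference was not tested. They were the 2 genes, among those named by rule or on a list, with ratios of opposite sign, at least 0.5 in size and with intervals that did not reach 0. Lyz2 had log2 ratios of -2.38 in the single-dose and 1.09 in the repetitive library, and 1 LipoFB barcode held 260 of its 466 UMIs (55.8%) in the latter. Sftpc had ratios of -0.88 and 2.82, and 1 barcode held 3131 of 3642 UMIs (86.0%) in the repetitive library.

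After bleomycin, 8 genes met the same limits, which was not tested either. Over all 6961 genes tested, 4892 had the same sign in both experiments. Scgb1a1 had ratios of -5.45 and 2.39, Hspa1b of -2.22 and 0.60, Dcn of -0.59 and 0.82, and Enpp2 of -0.84 and 0.81. Sgk1 had ratios of 1.18 and -0.70, Mt1 of 0.85 and -1.04, Vegfa of 0.62 and -0.94, and Id3 of 0.54 and -0.53.

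The rule was also met in the organoid libraries, which entered no comparison, by 127 barcodes with normal FBs and 219 with fibrogenic FBs. Of these, 85% and 85.4% held at least 10 UMIs of Dcn, Col14a1 and Ly6a, and their median depth was 71837 and 87049 UMIs.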

How the results depend on the processing

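Of 96 values recomputed, 69 stayed close to the reported value and 27 moved. The median of the niche ligands changed direction, from -0.11 to 0.11 at a floor of 50 CPM, and did so in both libraries. No paired test was made, as each condition had 1 library and the labels give no replicate numbers that pair libraries. Groups of PBS barcodes were compared within their own library. The single-dose and repetitive experiments differ in treatment and were set side by side, not used as replicates. The 30 higher genes became 3 after thinning before the rule (Ccdc42, Cpm and Hopx), 10 at a floor of 50 CPM, 51 with no floor and 9 without adventitial-type barcodes, of which 6 were among the 30. They became 46 without LipoFB barcodes rich in adventitial UMIs. This alternative, chosen after seeing the data, left such barcodes in the comparison group. The 128 lower genes became 35 at the floor of 50 CPM, 360 with no floor and 12 without adventitial-type barcodes. Median ratios over both libraries moved as follows. At a floor of 50 CPM they were 0.40 for xenobiotic, -0.24 for basement membrane and -1.02 for adventitial genes. With no floor they were 0.032 for lipid and -0.71 for niche genes. Without adventitial-type barcodes they were 0.061 for lipid, -0.13 for basement membrane, -0.084 for adventitial and -0.26 for immediate early genes. Thinning gave -0.19 for basement membrane genes, and equal weight per barcode gave -2.18 for adventitial genes. The share that met the rule was 31.6% and 19.5% after thinning, 72.0% and 72.1% at 1 UMI of Tcf21 and 1 of the markers, and 42.0% and 45.8% at 3 and 3. It was 58.4% in the repetitive library at 4000 UMIs. The 8 counts recomputed after bleomycin, under 4 alternatives chosen after seeing the data, stayed within 1.5 times. Those alternatives did not include another floor or thinning before the rule, which left 5 and 27 bleomycin barcodes. How the bleomycin counts move under those settings is not known. Thinning before the rule also moved LipoFB barcodes into the comparison group, and the cause of the shifts listed here was not tested.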

Other observations

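The study used male mice, and the sex genes were counted in the LipoFB barcodes of both PBS libraries. Ddx3y, which is Y-linked, had 208 and 5023 UMIs, and Xist, made from the inactive X chromosome, had 0 and 8 UMIs.

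Over LipoFB barcodes, the sums of the lipid and alveolar lists had a Spearman correlation of 0.35 in the single-dose library (n = 442) and 0.06 in the repetitive library (n = 2798). Both sums are parts of 1 UMI total per barcode, and Plin2 and Slc27a6 are on both lists.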
